A study of Mus musculus with 3 samples.

Results

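Tropomyosins, tropomodulins and leiomodins are the proteins that run along the thin filament of the sarcomere and finish its pointed end. Transcripts of 10 such genes (Tpm1 to Tpm4, Tmod1 to Tmod4, Lmod2 and Lmod3) were followed in a table of 18038 genes. They were chosen by gene symbol, and each symbol matched 1 row. The data are RNA sequencing counts of whole heart tissue from wild-type C57BL/6J mice, an inbred laboratory strain, at day 9 after birth. The 3 samples form the only group, carry replicate numbers 1 to 3 and are called hearts 1, 2 and 3. No transgene, treatment or second genotype is named for them, and the labels do not say whether each sample came from a separate animal. The spread behind each p-value is therefore that of these 3 samples and could be technical.

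In striated muscle, tropomyosin forms coiled-coil dimers that lie along the actin filament and, with troponin, control the access of myosin to actin. Tropomodulins cap the pointed end of the filament, where actin subunits would otherwise be added or lost, and bind tropomyosin there. Leiomodins are relatives of the tropomodulins that nucleate actin filaments and favour their elongation, so the balance of both families is known to bear on thin filament length in the heart.

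Total counts were between 17766501 and 18768094 per heart, and 12958 genes reached 1 CPM (counts scaled to a total of 1000000) or more in every heart. All 10 ventricular and all 8 atrial cardiomyocyte markers were detected in this sense. Airway genes stood out in heart 1: their summed level was 1708 TPM there, 0.820 TPM in heart 2 and 6.79 TPM in heart 3. TPM is the deposited length-scaled abundance rescaled to a total of 1000000 per heart. Because this is bulk tissue, fewer cells of a type and less RNA per cell cannot be told apart in any of the values that follow.

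Start regions of the genes are shown first. The RefSeq promoter table of GRCm38.p6 held 8 of the 10 members. Tmod3 and Lmod3 had no entry. The 250 bases before the start are printed 5′ to 3′ on the gene's strand for the most abundant member of each family and for Tmod4, the skeletal muscle tropomodulin. Capitals mark CATTCC, the core of the motif bound by TEAD factors, and CCGCCC, the core of the GC box, on either strand (GGAATG and GGGCGG in reverse). The windows are chr9:67049214-67049463 (minus strand) for Tpm1, chr4:46038972-46039221 (plus strand) for Tmod1, chr6:24597521-24597770 (plus strand) for Lmod2 and chr3:95124264-95124513 (plus strand) for Tmod4. The Tpm1, Tmod1 and Tmod4 windows lie inside the spans given for these genes below, so the start used is not the outermost of the span. Only 1 start of each gene printed here was searched.
Tpm1: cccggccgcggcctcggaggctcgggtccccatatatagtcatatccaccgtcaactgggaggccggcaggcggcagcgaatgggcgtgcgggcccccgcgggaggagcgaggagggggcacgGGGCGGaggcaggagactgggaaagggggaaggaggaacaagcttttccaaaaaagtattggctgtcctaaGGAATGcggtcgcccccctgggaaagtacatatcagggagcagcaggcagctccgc
Tmod1: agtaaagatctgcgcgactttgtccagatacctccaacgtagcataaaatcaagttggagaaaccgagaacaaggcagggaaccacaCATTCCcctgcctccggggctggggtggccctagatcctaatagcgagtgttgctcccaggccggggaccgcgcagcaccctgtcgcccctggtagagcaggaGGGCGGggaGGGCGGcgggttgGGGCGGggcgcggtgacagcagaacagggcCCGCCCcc
Lmod2: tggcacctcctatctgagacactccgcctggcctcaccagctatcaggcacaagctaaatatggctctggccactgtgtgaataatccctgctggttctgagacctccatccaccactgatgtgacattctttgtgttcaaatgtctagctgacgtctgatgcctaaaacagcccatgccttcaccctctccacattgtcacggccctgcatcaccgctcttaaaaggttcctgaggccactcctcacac
Tmod4: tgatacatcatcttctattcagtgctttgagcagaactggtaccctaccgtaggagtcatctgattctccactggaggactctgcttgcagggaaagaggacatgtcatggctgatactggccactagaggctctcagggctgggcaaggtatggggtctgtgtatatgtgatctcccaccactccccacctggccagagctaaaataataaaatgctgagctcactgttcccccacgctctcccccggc

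The Tpm1 window was 65.2% G and C and held 1 CATTCC core, 51 to 56 bases before the start, and 1 GC box core. The Tmod1 window was 64.0% G and C and held 1 CATTCC core and 4 GC box cores. Neither letter run occurred in the Lmod2 and Tmod4 windows, both 52.4% G and C, which is also the median of all 32851 promoter windows. Of these windows, 12.6% held CATTCC and 32.7% held CCGCCC. Tpm4, a cytoskeletal tropomyosin, had the highest G and C content of the members (78.8%) and 5 GC box cores, and Tpm2 had 69.6% and 2 cores. Of the genes with a pair of windows each, Tpm3 had 48.8% and 53.6%, and Tmod2 had 55.6% and 53.2%. No member window held TATAAA, a strict CArG box (the motif of serum response factor) or a strict MEF2 box, which 12.4%, 1.47% and 2.92% of all windows held. Such matches describe letters in a short window and say nothing of whether a factor binds there.

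All 10 members were detected, and together they held 1.31% to 1.80% of all TPM. Tpm1 alone made up 90.2% of their mean total. Their order by level was the same in all 3 hearts: Tpm1, Tmod1, Tpm4, Lmod2, Tpm3, Lmod3, Tpm2, Tmod3, Tmod4 and Tmod2. Mean levels ran from 13921 TPM for Tpm1 to 2.28 TPM for Tmod2, and only the last pair, Tmod4 and Tmod2, were below 10 TPM.

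**Figure D1:**
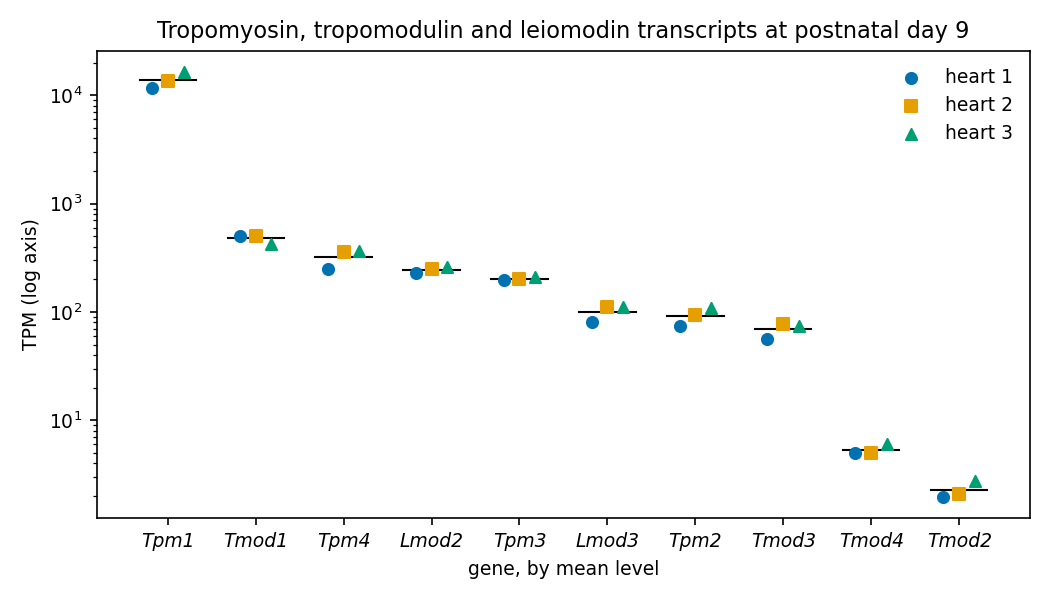
Level of each gene in each heart, in TPM on a log axis, with genes ordered by mean level and a bar at the mean of 3 hearts. Tpm1 lies at 11715 TPM or higher in every heart, Tmod1 to Tmod3 in the plotted order lie between 56.8 and 508 TPM, and Tmod4 and Tmod2 lie below 10 TPM.

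Tpm1, the gene of alpha-tropomyosin (Entrez ID 22003), is on the minus strand of chromosome 9 (GRCm38, 66998440 to 67049649). It had 120728, 144947 and 182260 counts in hearts 1, 2 and 3, which correspond to 11715, 13629 and 16419 TPM. Its mean of 13921 ± 2366 TPM (SD, n = 3 throughout) was the 3rd highest of all genes in the table. Heart 3 was the highest, heart 1 the lowest, and heart 2 lay between them. The gene has many spliced forms, with 30 transcripts listed in the table. Muscle and cytoskeletal forms of Tpm1 are summed in this 1 value and were not analysed separately here.

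The length behind the authors' Tpm1 value, recovered from its counts and FPKM (fragments scaled to gene length and library size), was 1140 bases, against 2890 bases for its longest GENCODE M21 transcript with a RefSeq partner. The other members lay closer to their longest transcripts, for example 1882 against 1976 bases for Lmod2 and 9742 against 9884 bases for Tmod2. With longest transcript lengths the lead of Tpm1 over Tpm2 was 5.93 log2 units, and without a length correction it was 6.39, against the 7.25 reported further on.

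The other tropomyosins were far lower. Tpm4 (ID 326618, chromosome 8, 72135292 to 72160991, plus strand), a cytoskeletal tropomyosin of non-muscle cells, was at 247, 359 and 365 TPM, with heart 1 below the other hearts. Tpm3 (ID 59069, chromosome 3, 90072651 to 90100902, plus strand), which makes slow skeletal muscle and cytoskeletal forms, was at 196, 200 and 211 TPM. These were the closest values of any member. Tpm2 (ID 22004, chromosome 4, 43513726 to 43523583, minus strand), the gene of beta-tropomyosin, was at 74.2, 94.1 and 108 TPM, with heart 1 lowest and heart 3 highest.

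Within the tropomyosins, Tpm1 held 95.7% ± 0.287 of the family's TPM. Tpm4 held 2.22% ± 0.259, Tpm3 1.41% ± 0.184 and Tpm2 0.633% ± 0.0262. The share of Tpm1 was 92.7% when levels were not divided by length and 90.5% with longest transcript lengths. Those of Tpm4, Tpm3 and Tpm2 were then 3.77%, 2.40% and 1.11% without the division and 4.996%, 3.04% and 1.49% with longest transcripts.

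Pairs of members were compared within each heart by the edgeR quasi-likelihood test with the heart as a block and gene length in the offset. The p-values were adjusted over 100 pairs, of which 17 were between members and 83 between other paralogs or partners. All 17 member pairs passed the threshold of an adjusted p of 0.05, but so did 97.6% of the pairs of other genes and 98% of all pairs, so passing sets the members apart in no way. The sizes of the ratios are the informative part.

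Tpm1 exceeded Tpm2 by 7.25 log2 units (95% interval 6.83 to 7.66, SE 0.180, edgeR adjusted p = 2.27e-09), a 152-fold difference. It exceeded Tpm3 by 6.09 (SE 0.183, edgeR adjusted p = 5.97e-09) and Tpm4 by 5.44 (SE 0.175, edgeR adjusted p = 7.38e-09). Tpm1 was thus higher than each of the other tropomyosins in 3 of 3 hearts. Among those, Tpm3 was below Tpm4 by -0.65 log2 units (95% interval -0.95 to -0.36, SE 0.126, edgeR adjusted p = 0.000944). This was the smallest of the 17 ratios. Tpm2 was below Tpm3 by -1.16 and below Tpm4 by -1.81 (both SE under 0.13 and both lower in 3 of 3 hearts).

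**Figure D2:**
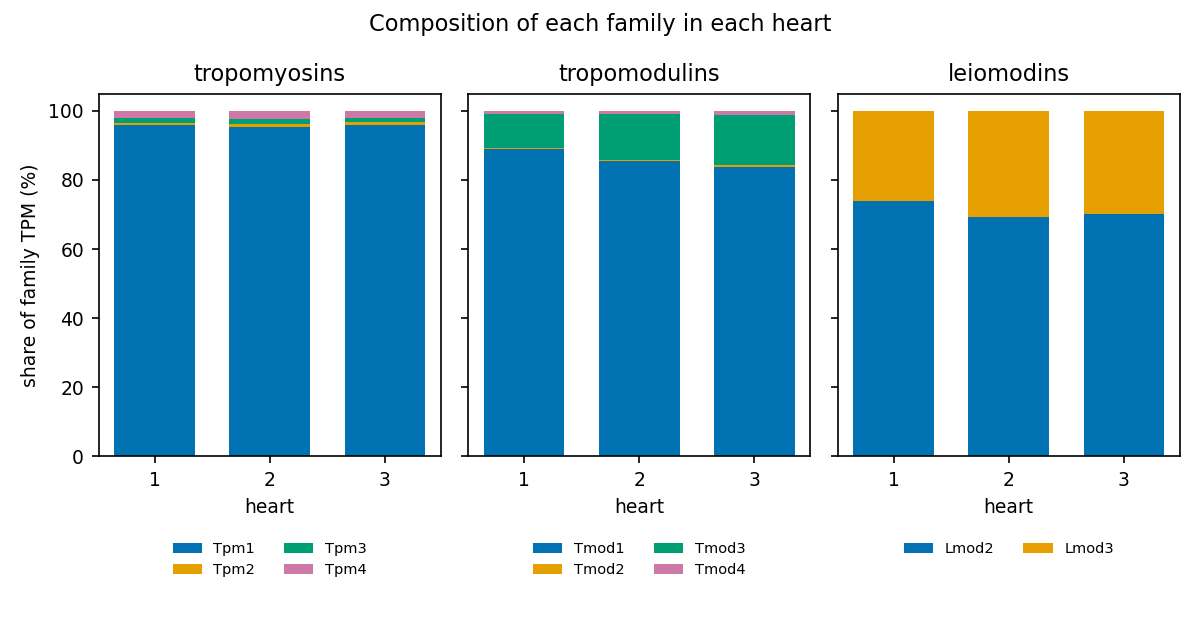
Share of each gene in the TPM of its family (%), as stacked bars for hearts 1, 2 and 3. Tpm1 takes 95.4% to 96.0% of the tropomyosins, Tmod1 83.7% to 88.9% of the tropomodulins and Lmod2 69.2% to 73.8% of the leiomodins.

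Tmod1 (ID 21916, chromosome 4, 46038940 to 46116032, plus strand) encodes the tropomodulin of heart muscle and red cells. It was at 508, 499 and 424 TPM (477 ± 46.0), and it was the only member whose highest value was in heart 1. Heart 3 was the lowest, below both other hearts. Erythroid markers, of which 8 of 10 were detected, summed to 13630, 14429 and 8805 TPM in the same order of hearts, lowest in heart 3. Most of that sum came from the globin genes, each lowest in heart 3. Ank1, at 209, 233 and 247 TPM, and Slc4a1, at 1.96, 3.76 and 2.07 TPM, were lowest in heart 1 instead. The enzyme gene Alas2, of heme synthesis in red cells, passed the test of variation described further on, at 44.7, 64.0 and 32.1 TPM. The part of red cells in the Tmod1 values was not tested.

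Tmod3 (ID 50875, chromosome 9, 75497784 to 75559687, minus strand), the ubiquitous tropomodulin, was at 56.8, 77.3 and 74.2 TPM. Tmod2 (ID 50876, chromosome 9, 75565295 to 75611348, minus strand), the neuronal form, was at 1.97, 2.10 and 2.76 TPM. It lies upstream of Tmod3 on the same strand, with 5607 bases between the end of Tmod2 and the start of Tmod3. These neighbours in the genome differed in level by 30.5-fold, which is -4.93 log2 units for Tmod2 over Tmod3 (SE 0.157, edgeR adjusted p = 6.98e-09). Of 10 neuron and glia markers 7 were detected, and the list summed to 53.5, 25.4 and 40.1 TPM. That sum was lowest in heart 2, whereas Tmod2 was lowest in heart 1.

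Tmod4 (ID 50874, chromosome 3, 95111042 to 95129208, plus strand), the skeletal muscle form, was at 4.966, 5.001 and 5.993 TPM, from 66.21, 73.29 and 80.64 counts. The counts are not whole, so some reads were divided between genes, and the span given for Tmod4 in the table covers 12010 bases of Vps72 on the same strand. The level of Tmod4 is uncertain for that reason. Its start in the promoter table lies inside this span, past the end of Vps72. Counts of Tmod1 and Tpm3 were fractional as well, and the other 7 members had whole counts. Tmod1 shares 1287 bases with Tstd2, a gene with 410 to 461 counts. The Tpm2 span lies wholly within that of Arhgef39 on the same strand, which had 113 to 136 counts.

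Tmod1 exceeded Tmod3 by 2.79 log2 units (SE 0.140, edgeR adjusted p = 9.31e-08), Tmod4 by 6.48 (SE 0.144, edgeR adjusted p = 1.60e-09) and Tmod2 by 7.71 (SE 0.195, edgeR adjusted p = 2.27e-09). As shares of the family, Tmod1 held 86.0% ± 2.63, Tmod3 12.6% ± 2.41, Tmod4 0.969% ± 0.184 and Tmod2 0.417% ± 0.111. Tmod2 was below Tmod4 by -1.23 (SE 0.145, edgeR adjusted p = 3.65e-05). That order rests on length: Tmod2, with far longer transcripts, had more counts than Tmod4 (174 to 263 against 66.21 to 80.64), and the ratio turned to 1.498 without a length correction (edgeR adjusted p = 8.01e-06).

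Lmod2 (ID 93677, chromosome 6, 24597771 to 24605414, plus strand), the cardiac leiomodin, was at 229, 250 and 258 TPM (246 ± 15.2). Lmod3 (ID 320502, chromosome 6, 97238528 to 97253101, minus strand), a striated muscle leiomodin whose loss is known to cause nemaline myopathy, was at 81.3, 111 and 110 TPM (101 ± 17.0). Heart 1 was the lowest for both, and for Lmod3 it lay apart from hearts 2 and 3. Lmod2 exceeded Lmod3 by 1.30 log2 units (95% interval 1.03 to 1.56, SE 0.115, edgeR adjusted p = 5.30e-06), a 2.46-fold difference. Lmod2 thus held 71.0% ± 2.42 of the TPM of both leiomodins. Lmod1, the smooth muscle leiomodin and not a member, was at 4.57, 4.70 and 5.72 TPM.

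The adult skeletal myosins Myh1 and Myh2 were near background beside Lmod3 and Tmod4. The table held 16 skeletal muscle markers, of which 5 were detected, none was at 0 in every heart, and the list summed to 34.8, 45.6 and 66.1 TPM. Myh1 and Myh2 had 3.04 counts or fewer in each heart. Myh8, another skeletal myosin of the list, was detected, at 1.49, 2.32 and 1.72 TPM. The list held Casq1, a calcium store gene, at 12.6, 26.7 and 38.2 TPM, and Mybpc2, a myosin-binding protein gene, at 3.48, 5.96 and 13.5 TPM. Both passed the test of variation. Lmod3 alone was above the summed list in each heart. Lmod3 also exceeded Tmod4 by 4.23 log2 units (SE 0.150, edgeR adjusted p = 1.44e-08). The part of skeletal muscle in the Lmod3 and Tmod4 values was not tested.

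Across families, the cap and the nucleator were compared directly. Lmod2 was below Tmod1 by -0.96 log2 units (95% interval -1.21 to -0.70, SE 0.110, edgeR adjusted p = 3.03e-05), or 1.94-fold, in 3 of 3 hearts. Tpm1 exceeded Tmod1 by 4.86 (SE 0.210, edgeR adjusted p = 3.51e-08) and Lmod2 by 5.81 (SE 0.177, edgeR adjusted p = 6.21e-09). Tpm1 to Tmod1 had the largest standard error of the 17 ratios: Tpm1 was lowest and Tmod1 highest in heart 1.

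**Figure D3:**
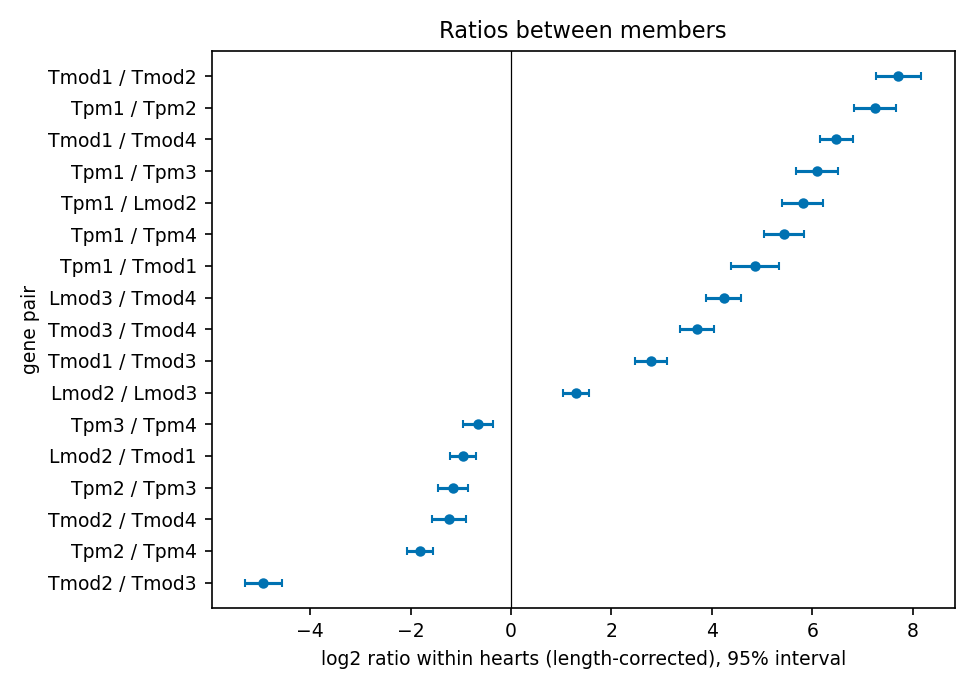
Log2 ratio of the first to the second gene of each member pair within hearts, corrected for gene length, as points with 95% intervals. No interval reaches 0, from Tmod1 over Tmod2 at 7.71 to Tmod2 over Tmod3 at -4.93.

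Neighbours in the order of levels that belong to different families were not among the pairs tested and are described by their ranges. Ranges overlapped for Tpm4 and Lmod2, for Lmod3 and Tpm2, and for Tpm2 and Tmod3. In each case the first gene was still the higher in every heart, by mean log2 TPM ratios of 0.38 ± 0.232, 0.13 ± 0.107 and 0.40 ± 0.131. Lmod3 and Tpm2 were therefore the members closest in level, at a mean ratio of 1.10. Tmod1 and Tpm4 did not overlap, but their log2 ratio varied widely, at 0.58 ± 0.422. Lmod2 and Tpm3 did not overlap either and kept a steadier ratio of 0.28 ± 0.0517.

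Family sums put these values on the scale of the filament. Tropomyosins summed to 12232, 14282 and 17104 TPM, and the sarcomeric actins Actc1 and Acta1 to 17748, 21622 and 23733 TPM. Both sums were lowest in heart 1 and highest in heart 3, and their log2 ratio was -0.54 ± 0.0629, or 0.690 tropomyosin transcripts for each actin transcript. This ratio moved with the gene lengths used: it was -0.76 without a length correction and -1.70, or 0.308 transcripts, with longest transcript lengths, which were added after seeing the data. For Tpm1 and Actc1 alone, the TPM ratio was 0.661, 0.632 and 0.696, against 0.279, 0.268 and 0.294 with longest transcript lengths. In contrast, the ratio of Tpm1 to Tnnt2, the cardiac troponin T gene, was 0.797 in heart 1, 1.14 in heart 2 and 1.36 in heart 3. With longest transcript lengths it was 0.343, 0.494 and 0.590. Each gene then has 1 length in all hearts, so a change of length could hardly alter the order of hearts. The ratio of Tpm1 to Tnnc1, the cardiac troponin C gene, was 1.95, 2.08 and 2.35, against 0.905, 0.960 and 1.08 with longest transcript lengths. These ratios carry no test.

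Tropomodulins summed to 572, 584 and 507 TPM and both leiomodins to 310, 361 and 368 TPM. The log2 ratio of tropomodulins to leiomodins was 0.88 in heart 1, 0.69 in heart 2 and 0.46 in heart 3, a mean of 0.68 ± 0.211. The ratio of tropomyosins to tropomodulins was 4.42, 4.61 and 5.08 on the log2 scale. In transcripts, the tropomodulin sum was therefore in the greatest excess over the leiomodins, and the least outnumbered by tropomyosin, in heart 1. Heart 3 stood at the other end of both ratios. Neither ratio was tested for a difference between hearts, and no member passed the test of variation described next.

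Variation between the hearts was tested for every detected gene with edgeR, as the deviance from 1 common level at the spread typical of genes of that abundance. None of the 10 members passed at an adjusted p of 0.05, where 1.67% of 12958 genes did. At an unadjusted p under 0.05 there were 3 members, Tpm2, Tpm4 and Lmod3, and 6.18% of all genes tested. The smallest adjusted p was 0.233, for Tpm2, with a highest heart 1.58-fold above the lowest in normalised counts. Tpm4 was next at 1.55-fold (edgeR adjusted p = 0.311), then Lmod3 at 1.41-fold (edgeR adjusted p = 0.660), Tmod3 at 1.36-fold (edgeR adjusted p = 0.840) and Tpm1 at 1.47-fold (edgeR adjusted p = 0.849). In simulated counts of the same size, the test found 2.5% of genes changed 1.5-fold in 1 heart and 71.7% of genes changed 2-fold. These rates cover genes of all abundances, and recovery at the levels of the members was not measured. Differences of the size seen here could therefore have been missed with these 3 samples.

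The median of the log2 ratio of highest to lowest heart was 0.473 over the members and 0.231 over all genes tested, and 8 of 10 members lay above the latter. Tpm2, Tpm4, Tmod2 and Tpm1 had a wider span than 87.4% to 91.5% of genes tested. Tpm3 and Tmod1 had the narrowest log2 spans of the members, 0.18 and 0.20, though 35.5% and 41.5% of genes tested had smaller ones.

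**Figure D4:**
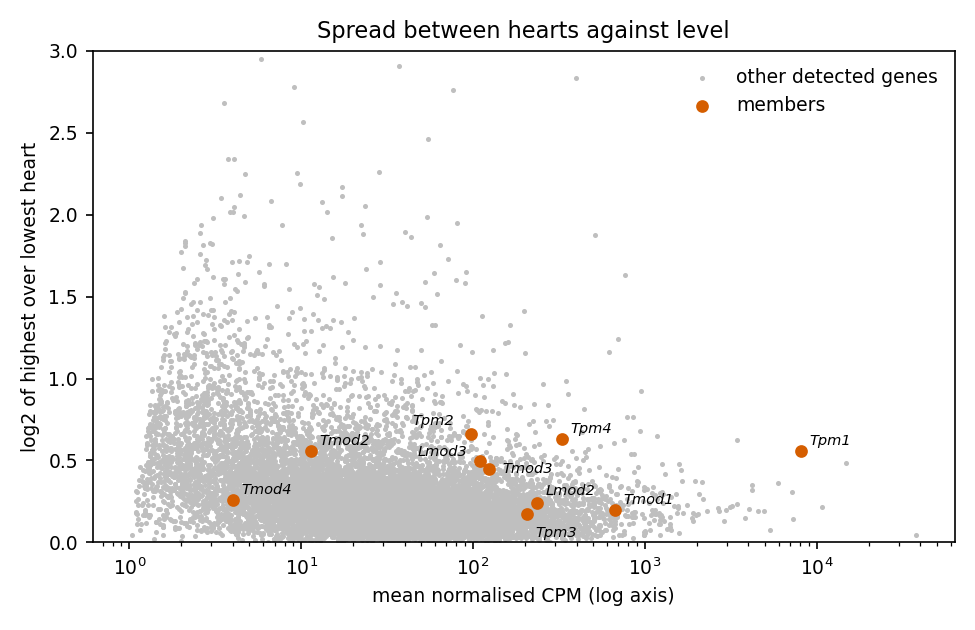
Log2 ratio of the highest to the lowest heart for each detected gene against its mean normalised CPM on a log axis, with the members in orange and other genes in grey (5 genes lie above the axis limit of 3). Members at 100 CPM and more range from Tpm3 at 0.18 to Tpm4 at 0.63, and Tpm1 stands at 0.56 among few genes of its abundance.

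In TPM, 9 of 10 members had their lowest value in heart 1, as did 32.6% of detected genes. Heart 3 was the highest for 7 members and for 20.98% of detected genes. The span runs from the lowest to the highest heart, so leaving out the heart at either end narrows it by construction. The values without a heart therefore show only which heart set the span of a member. Without heart 1, which also held the airway transcripts, the log2 span fell from 0.63 to 0.0952 for Tpm4, from 0.50 to 0.0566 for Lmod3 and from 0.45 to 0.0079 for Tmod3. Tpm1 kept a span of 0.34 and Tpm2 of 0.31 between hearts 2 and 3, and Tmod2 one of 0.48. Without heart 3 it fell from 0.20 to 0.0246 for Tmod1, from 0.18 to 0.0217 for Tpm3 and from 0.56 to 0.0820 for Tmod2. The part of the airway tissue in these values was not tested.

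Some other thin filament genes varied more than any member. Of 6 actin genes 2 passed the test: Acta1, the skeletal actin, at 24.7, 74.2 and 130 TPM (edgeR adjusted p = 6.29e-21), and Acta2, the smooth muscle actin, at 303, 670 and 918 TPM (edgeR adjusted p = 9.28e-09). Both were lowest in heart 1 and highest in heart 3. Of 8 troponin genes, 6 of them detected, 1 passed: Tnni1, the fetal and slow skeletal troponin I, ran the other way at 1726, 862 and 448 TPM (edgeR adjusted p = 1.25e-12). Actc1, at 17723, 21548 and 23603 TPM, did not pass (edgeR adjusted p = 1.00).

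Tpm2 and Tpm4 are also expressed by smooth muscle and non-muscle cells, so markers of those cells are given beside them. All 14 smooth muscle and pericyte markers were detected, and they summed to 1959, 2481 and 2851 TPM. These genes did not share 1 pattern. Des, the highest by mean, was at 837, 766 and 896 TPM, lowest in heart 2. Abcc9 was at 141, 142 and 115 TPM, lowest in heart 3, whereas Acta2 rose from 303 TPM in heart 1 to 918 TPM in heart 3. The sum was therefore not taken as a measure of smooth muscle content. Besides Acta2, the actin-binding gene Tagln passed the test at 62.8, 78.2 and 108 TPM (edgeR adjusted p = 0.0240). Myh11, the smooth muscle myosin, was at 24.3, 25.2 and 29.8 TPM and did not pass. Endothelial markers, all 10 detected and none past the test, summed to 1230, 1377 and 1349 TPM, and fibroblast markers, also all 10 detected with none past the test, to 4476, 4689 and 4742 TPM. The smooth muscle, endothelial and fibroblast sums were lowest in heart 1, as Tpm2 and Tpm4 were. Macrophage markers, all 10 detected and none past the test, summed to 399.8, 324.9 and 344.7 TPM, highest in heart 1. The part of these cells in the Tpm2 and Tpm4 values was not tested.

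**Figure D5:**
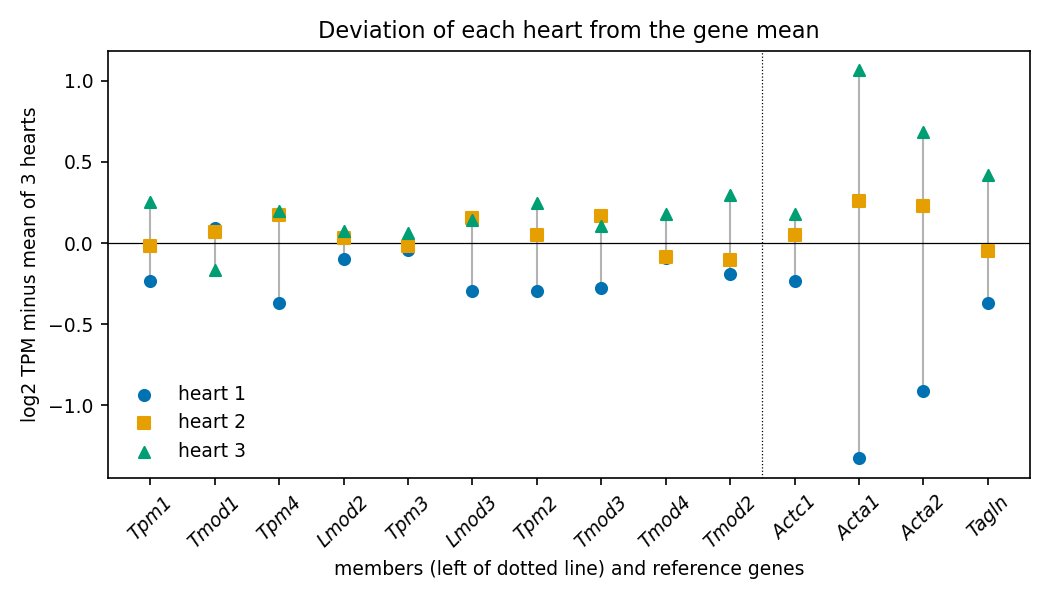
Log2 TPM of each heart minus the mean of the 3 hearts, for the 10 members (left of the dotted line) and for Actc1, Acta1, Acta2 and Tagln (right of it). Heart 1 is the lowest for every plotted gene but Tmod1, and Acta1 and Acta2 spread wider than any member.

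Partners of the thin filament ends and of filament assembly were covered by 24 genes. Of these, 23 were detected, with a median log2 span of 0.264 beside 0.231 over all genes tested, and 1 passed the test: Xirp2, which encodes an actin-binding protein of muscle attachment sites, at 12.6, 24.1 and 24.1 TPM (edgeR adjusted p = 0.000321). The barbed-end capping genes Capzb, Capza2 and Capza1 were at 335 ± 1.17, 153 ± 3.05 and 89.7 ± 9.33 TPM. Capzb thus lay between Tmod1, which caps the opposite end, and Lmod2. Nebl, the gene of the cardiac nebulin relative nebulette, was at 123 ± 12.7 TPM, whereas Neb, the nebulin of skeletal muscle, was at 0.538 ± 0.131 TPM. The formin Fhod3, an actin assembly factor of heart muscle, was at 158, 140 and 107 TPM, lowest in heart 3 like Tmod1, and did not pass (edgeR adjusted p = 0.991).

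The kelch proteins Klhl40 and Klhl41 are known partners of leiomodin 3 and nebulin. Klhl41 was at 67.4, 83.6 and 66.5 TPM, below Lmod3 in every heart, and Klhl40 at 11.7, 9.78 and 8.33 TPM. All 4 genes of this group were detected and none passed the test. Serum response factor, a regulator of muscle actin genes, and its cofactors were covered by 4 genes in the table. All were detected and none passed, with Srf at 99.7 ± 9.05 TPM and Myocd at 39.6 ± 4.74 TPM.

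Genes nearest to a member in level were sought by the distance of log2(TPM + 1) over the 3 hearts, which is a description over 3 samples only. For Tpm1 they were Mb, Myh6 and Tnnt2, with Mb, the myoglobin gene, at 10555, 11462 and 13192 TPM as the closest. A near gene need not share the pattern over hearts. Myh6, at 12610, 12257 and 11975 TPM, and Tnnt2, at 14698, 11977 and 12054 TPM, were highest in heart 1, where Tpm1 was lowest. For Tmod1 the nearest genes were Hmgn2, Mlf1 and Sln. For Lmod2 the nearest were Sod2, Anxa5 and Uqcc2, and the distance to Sod2 was 0.0258. Tpm1 was the member farthest from its nearest gene, at a distance of 0.430, among the 3 for which neighbours were sought.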

How the data were processed

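Counts and FPKM per gene and heart were deposited by the authors in 1 table, per the file headers. Some counts were fractional, so the deposited values were treated as estimated counts (expected counts) and rounded to whole numbers for tests. The submitters' processing notes list HISAT, without its version, and GRCm38.p6. For the counter, annotation, layout and strand, nothing is given in the sources used here. One line without values was left out, and the authors' means over hearts were not used.

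FPKM, as computed by the authors, was rescaled to TPM. Gene length was that implied by count and FPKM. The 10 members and the gene lists were chosen with earlier results of these data known. Tests used edgeR 4.0.16 (R 4.3.3, limma 3.58.1) with TMM scaling (factors 0.986 to 1.02) and Benjamini-Hochberg adjustment, and both were tested on simulated data. Variation was tested by the deviance of an intercept-only negative binomial fit at the trended dispersion over 12958 genes at 1 CPM or more in every heart. Pairs were tested by quasi-likelihood, two-sided, and the 83 other pairs used each gene once. A count comparison of each pair of hearts by chi-square gave 9.70 to 23.7 per degree of freedom, and no library was taken to be deposited under 2 labels. Alternatives were DESeq2 1.42.0 size factors and Wald test, the common dispersion, no low-count filter, other lengths, no block and each heart left out. Named were all members, genes of the thin filament lists, the highest or variable genes of marker lists, and 3 genes nearest to each of Tpm1, Tmod1 and Lmod2. Myh1, Myh2, Myh8, Myh11, Des, Abcc9, Ank1, Slc4a1 and the overlapping genes were added after their values were seen. Protein sequences were not used here.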

Additional observations from a re-analysis of the deposited data

How the results depend on the processing

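The 17 member pairs passed the edgeR ratio test under every alternative run (DESeq2 size factors, the DESeq2 Wald test, no replicate block, no length correction, longest GENCODE transcript lengths, added after seeing the data, and each heart left out). The heart serves as the replicate block: without it the number of pairs passing was 17 as well. RefSeq transcript lengths were not run because no table held them. The one ratio to turn was Tmod2 over Tmod4, 1.498 without a length correction. No member passed the test of variation under any alternative, and the number of genes passing, 216, was 76 to 111 with 1 heart left out. Without length scaling (CPM) the shares of Tpm1, Tmod1 and Lmod2 were 92.7%, 82.7% and 68.3%, and the log2 ratios of tropomyosins to actins, tropomyosins to tropomodulins and tropomodulins to leiomodins were -0.76, 3.42 and 1.23. With longest transcripts the Tpm1 share was 90.5% and the first 2 ratios were -1.70 and 3.62. Depth did not limit the detection of any member. The number of hearts limits the test of variation.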
